A study of Mus musculus with 19 samples.

Results

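The glutathione S-transferase (GST) family was followed here through 10 named genes: Gstp1, Gstp2, Gstm1, Gstm2, Gstm5, Gsto1, Gsta4, Gstt1, Gstk1 and Mgst1. They are a part of the family, chosen by symbol and with earlier results of these data known. Other GST genes and related genes are given further below. The source was a table of gene expression in mouse pancreatic ductal organoids with 29861 rows. All 10 were present and passed the filter on low values, as did 12500 genes in all. Organoids are epithelial cultures that grow as hollow spheres in a basement membrane gel. RNA was measured in 19 lines. The 6 tumor lines came from adenocarcinomas of mice that carried, among other alleles, Pdx1-Cre, a Cre transgene active in the pancreatic epithelium, and a Cre-activated Trp53 R172H allele. The 6 PanIN lines came from ducts of mice with Pdx1-Cre, among other alleles, but no Trp53 allele in the labels, whose pancreas held pancreatic intraepithelial neoplasia, a precursor lesion. The 7 normal lines came from ducts of wild-type mice with a histologically normal pancreas. All mice had the C57B6/J background, and 11 lines were female and 8 male. Of the tumor lines 3 were female and 3 male, of the PanIN lines 3 and 3, and of the normal lines 5 and 2. Every line grew in the same medium, which contained EGF, FGF-10, noggin, R-spondin, gastrin, an inhibitor of TGF-beta receptors and 1.25 mM N-acetylcysteine, a cysteine donor for glutathione.

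GST enzymes join the thiol of glutathione to reactive electrophiles, among them drugs, epoxides and the aldehydes left by lipid peroxidation. The conjugates leave the cell through export pumps and are processed further to mercapturates. The cytosolic enzymes are grouped by sequence into classes, here pi (Gstp), mu (Gstm), alpha (Gsta), omega (Gsto) and theta (Gstt). The kappa enzyme Gstk1 sits in mitochondria and peroxisomes, and Mgst1 belongs to an unrelated family of membrane proteins. Several GST genes are known targets of the transcription factor NRF2, and in rats a pi class enzyme is a classical marker of early neoplastic foci of the liver.

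Gstp1 and Gstp2 are neighbouring pi class genes, and their promoters are shown because the upstream sequences are close copies while the RNA levels were far apart. The RefSeq windows (build GRCm38.p6, 250 bases before to 50 after the start site, 5′ to 3′) are chr19:4037863-4038162 for Gstp1 and chr19:4042172-4042471 for Gstp2, both on the minus strand. Capitals mark the AP-1 core TGANTCA, whose reverse complement has the same letters.
Gstp1: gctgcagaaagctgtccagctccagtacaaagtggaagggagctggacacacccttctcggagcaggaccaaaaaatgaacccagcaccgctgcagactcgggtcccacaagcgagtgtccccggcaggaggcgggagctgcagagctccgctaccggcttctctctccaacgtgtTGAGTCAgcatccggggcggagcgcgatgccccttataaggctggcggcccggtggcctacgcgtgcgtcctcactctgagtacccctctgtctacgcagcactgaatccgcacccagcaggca
Gstp2: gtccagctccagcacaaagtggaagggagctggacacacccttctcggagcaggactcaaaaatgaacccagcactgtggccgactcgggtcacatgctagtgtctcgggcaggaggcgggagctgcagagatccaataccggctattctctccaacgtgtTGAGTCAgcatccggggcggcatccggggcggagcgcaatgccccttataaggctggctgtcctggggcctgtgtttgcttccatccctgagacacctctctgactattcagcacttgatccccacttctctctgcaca
Aligned end to end, the windows shared 241 identical bases with 43 mismatches and 32 gapped bases, an identity of 84.9% of the aligned bases. The match to TGANTCA begins 74 bases before the start site of Gstp1 and 89 bases before that of Gstp2.

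Windows were present for 9 of the 10 members, all but Gsta4. The core of the antioxidant response element, the site bound by NRF2, was searched on both strands as TGACNNNGC. It was found in the windows of Gstm5 and Mgst1, that is in 2 of 9 members, against 14.0% of 27025 genes with a window. TGANTCA, a motif searched after the values were known, was found in 3 of 9 members, Gstp1, Gstp2 and Gstm5, against 8.97% of those genes. The letters TGACNNNGC are not in the windows of the other 7 members that have one, and a match describes the sequence, not binding. Variants of this core were not searched. In Gstp1 and Gstp2 the marked TGAGTCA is followed by GC, which differs from the searched core by a G in place of its C. These windows therefore cannot be said to lack a site for NRF2. Stretches of 60 bases around the TGACNNNGC matches are shown, since of the members with a window only these hold one. They lie at chr3:107895787-107895846 for Gstm5 and chr6:138140446-138140505 for Mgst1, both on the plus strand of GRCm38.p6, and capitals mark the match, which for Mgst1 is on the opposite strand.
Gstm5: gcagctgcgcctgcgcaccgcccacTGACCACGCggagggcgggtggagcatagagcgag
Mgst1: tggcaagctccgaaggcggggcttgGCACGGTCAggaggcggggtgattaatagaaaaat

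Levels are given as TPM (transcripts per 1000000), an abundance per transcript length that sums to the same total in every line, so levels of different genes can be compared within a line. TPM keeps no read depth, which is therefore unknown, and fewer expressing cells cannot be told apart from less RNA per cell. Between 11938 and 12437 genes reached a TPM of 1 per line. The column names of the table carry library identifiers of 3 series, called here the first identifier series, the second and the third. Series and sex were not balanced. PanIN 1, 2 and 3, of the first series, were female, and PanIN 4, 5 and 6 were male. In the third series PanIN 5 and 6 were male and normal 12 and 13 female, so PanIN against normal there is also male against female. With sex as a factor 5 members were called between PanIN and normal lines. All 12 ductal markers were detected, with a summed level of 7613 to 9434 TPM in tumor, 8090 to 12643 TPM in PanIN and 10571 to 15593 TPM in normal lines. Of 10 acinar, 9 endocrine, 10 fibroblast and stellate and 6 endothelial markers in the table, only Cela1 and Vim reached 1 TPM in any line, and Ins1, Ins2, Gcg, Col3a1 and Lum were at 0 in every line. Of 9 blood cell markers, Cd68 and Csf1r reached 1 TPM, and Cd3e and Lyz2 were at 0. The summed blood cell markers stood at 1.66 to 3.94 TPM in tumor, 2.75 to 3.65 TPM in PanIN and 4.41 to 8.28 TPM in normal lines. The part of these marker differences in the results on GST genes was not tested.

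Together the 10 members made up a mean of 4133 ± 663 TPM in tumor (SD, n = 6), 5668 ± 834 TPM in PanIN (SD, n = 6) and 3506 ± 307 TPM in normal lines (SD, n = 7). Each of the PanIN lines, at 4980.4 to 6994 TPM, lay above each of the normal lines, at 3029.9 to 3802 TPM, and above each of the tumor lines, at 2994 to 4939.6 TPM. Gsta4 and Gstp1 were the most abundant members. Gsta4 made up 31.8% of the members' sum in tumor, 29.7% in PanIN and 31.3% in normal lines. The share of Gstp1 was 30.0% in tumor, 30.9% in PanIN and 22.0% in normal lines. Mgst1 went the other way, with 11.2% in tumor, 11.6% in PanIN and 19.2% in normal lines. Gstp2 and Gstk1 were the lowest members, at up to 5.94 and 11.33 TPM in any line.

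**Figure D1:**
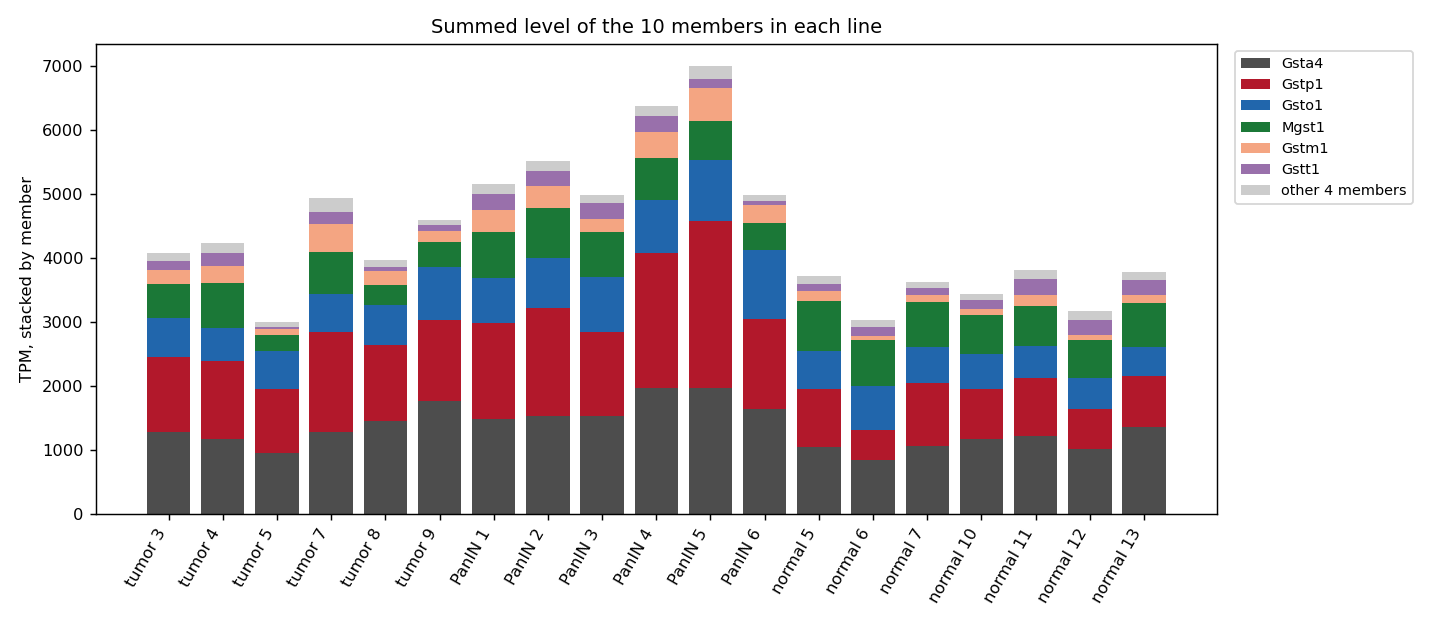
TPM of the 10 members stacked for each of the 19 lines, with tumor lines left, PanIN lines in the middle and normal lines right; the grey top segment is the sum of Gstp2, Gstm2, Gstm5 and Gstk1. PanIN lines are the tallest bars, with PanIN 5 at 6994 TPM, and tumor 5, at 2994 TPM, is the lowest of all lines.

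PanIN lines were compared with normal lines to ask how ducts with precursor lesions differ from wild-type ducts. Of the 10 members, 5 rose and 0 fell: Gstp1, the mu class genes Gstm1 and Gstm2, the omega gene Gsto1 and the alpha gene Gsta4. Over all 12500 genes, 6.78% were called in this comparison, 3.1% higher and 3.68% lower. Calls were made at an adjusted p below 0.05 in limma on log2(TPM + 1), fitted over all lines and genes; folds are on this scale, which understates changes of low genes. The groups did not overlap for 4 members, each with all PanIN lines above all normal lines, against 1.26% of all genes; 3.05% of all genes separated these groups in either direction and 1.79% with PanIN lines below. The median log2 change of the members was 0.41, beside -0.029 for all genes tested. With median-of-ratios scaling 56.5% of all calls were rises, against 45.7% as deposited.

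The pi class gene Gstp1 encodes the main pi enzyme, which also binds the stress kinase JNK. It ranged from 995 through a median of 1202 to 1561 TPM in tumor lines. PanIN lines ranged from 1319.9 through a median of 1602 to 2607 TPM, and normal lines from 469.9 through a median of 794 to 985 TPM. Every tumor and every PanIN line was thus above every normal line, while tumor 7 was above 3 of the 6 PanIN lines. Gstp1 averaged 1775 ± 495 TPM in PanIN lines (SD, n = 6) and 780.4 ± 181 TPM in normal lines (SD, n = 7), a 2.27-fold rise (log2 change 1.18 with an SE of 0.17, adjusted p = 0.000354, limma). Within the identifier series the log2 change was 1.00 with 3 PanIN and 3 normal lines, 1.32 with 1 and 2, and 1.45 with 2 and 2.

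Its neighbour Gstp2 stayed under 6 TPM throughout. Among tumor lines it stood between 1.56 and 5.94 TPM with a median of 3.945 TPM, among PanIN lines between 0.72 and 4.9 TPM with a median of 1.59 TPM, and among normal lines it was listed at 0 in normal 6, at 0.33 TPM in normal 12 and at 1.59 to 4.69 TPM in the other 5. The groups overlapped. PanIN lines differed from normal lines by a log2 change of 0.21 (95% interval -0.51 to 0.93, adjusted p = 0.815, limma). The transcripts of these genes are alike: of the 943 distinct 50-base stretches in coding transcripts of Gstp1 in a GENCODE annotation of GRCm38, 51.0% also occurred in Gstp2. The division of reads between the pair is therefore uncertain. As the reads were divided, the sum of the pair was nearly all Gstp1. Its log2 change between PanIN and normal lines differed from that of Gstp1 by less than the spread between lines, which these levels fixed in advance. The sum describes the pair and cannot tell which gene the reads came from.

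Mu class enzymes conjugate epoxides and other electrophiles of aromatic compounds, and their genes lie side by side. Gstm1 ranged from 93.9 through a median of 226 to 441 TPM in tumor lines, from 203 through 342 to 515 TPM in PanIN lines and from 69.7 through 117 to 177 TPM in normal lines. All 6 PanIN lines and 5 of 6 tumor lines were above the highest normal line, and tumor 5 lay within the normal range. The PanIN mean of 349 ± 105 TPM (SD, n = 6) was 2.94-fold the normal mean on the log scale, 118 ± 36.4 TPM (SD, n = 7; log2 change 1.56 with an SE of 0.28, adjusted p = 0.00195, limma), which was the largest change among the members. Within the series the log2 change was 1.42, 1.6 and 1.85.

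Gstm2 followed at a lower level. It ranged from 27.6 through 66.5 to 178 TPM in tumor lines, from 53.4 through 93.4 to 131 TPM in PanIN lines and from 24.9 through 31.4 to 59.0 TPM in normal lines. Of the PanIN lines, 5 of 6 were above every normal line, and PanIN 6 was not. The rise in PanIN lines was 2.33-fold (log2 change 1.22 with an SE of 0.34, adjusted p = 0.0355, limma), with 1.09, 1.05 and 1.68 on the log2 scale within the series. This call was the least firm: 9 of the 19 fits with 1 line missing did not make it, those without normal 6, 7, 10, 12 or 13 or PanIN 1, 2, 4 or 5 (adjusted p = 0.0518 to 0.0974, limma), and without a filter on low values (adjusted p = 0.0592, limma).

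Gstm5, the remaining mu class member, did not share this pattern. It ranged from 32.0 through 37.2 to 60.25 TPM in tumor lines, from 32.2 through 54.8 to 70.3 TPM in PanIN lines and from 46.0 through 67.5 to 101 TPM in normal lines. The groups overlapped, and the log2 change between PanIN and normal lines was -0.33 (95% interval -0.74 to 0.071, adjusted p = 0.380, limma). The ratio of Gstm1 to Gstm5 was 2.63 to 11.6 in tumor, 2.89 to 11.0 in PanIN and 0.899 to 2.71 in normal lines. Of the 50-base stretches of Gstm1 transcripts, 19.9% also occurred in other genes, among them Gstm2-ps1 and Gstm3, and of those of Gstm2 8.3%. For Gstm5 and the remaining members outside the pi class the share was 0.

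Gsta4 encodes an alpha class enzyme with high activity toward 4-hydroxynonenal, an aldehyde of lipid peroxidation. It ranged from 947 through 1273 to 1754 TPM in tumor lines, from 1472 through 1583 to 1964 TPM in PanIN lines and from 839 through 1063 to 1354 TPM in normal lines. All PanIN lines were above all normal lines, and tumor 9 lay among the PanIN lines. The PanIN rise was 1.53-fold (log2 change 0.61 with an SE of 0.13, adjusted p = 0.00528, limma), and 0.63, 0.72 and 0.61 on the log2 scale within the series.

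Gsto1 encodes an omega class enzyme that acts as a thiol transferase and reduces dehydroascorbate. Its range was 518 through 605 to 827 TPM in tumor lines, 695 through 848 to 1086 TPM in PanIN lines and 467 through 542 to 686 TPM in normal lines. All PanIN lines were above all normal lines. PanIN lines averaged 867 ± 138 TPM (SD, n = 6) and normal lines 548 ± 75.0 TPM (SD, n = 7), a 1.58-fold rise (log2 change 0.66 with an SE of 0.11, adjusted p = 0.00144, limma). Within the series the log2 change was 0.34, 0.67 and 1.1. The calls of Gstp1, Gstm1, Gsta4 and Gsto1 in this comparison were kept in all 19 fits without 1 line. With the line numbers as a factor in the fit, the call of Gstm1 was lost (adjusted p = 0.0961, limma).

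Gstt1, Gstk1 and Mgst1 were not called between PanIN and normal lines. The theta gene Gstt1, whose enzyme acts on small halogenated compounds, ranged from 43.8 through 108 to 208 TPM in tumor lines, from 56.7 through 241 to 250.3 TPM in PanIN lines and from 111 through 139.9 to 241 TPM in normal lines. PanIN 1 to 4 lay at 238 to 250.3 TPM, PanIN 5 at 150.2 TPM and PanIN 6 at 56.7 TPM. Normal 5, 6, 7 and 10 lay at 111 to 139.9 TPM and normal 11, 12 and 13 at 229.98 to 241 TPM. The pooled log2 change was 0.10 (95% interval -0.70 to 0.91, adjusted p = 0.927, limma). Within the identifier series it had opposite signs, 0.97 in the first, 0.45 in the second and -1.31 in the third. The PanIN lines of the third series were male and its normal lines female, and the part of sex within a series was not tested.

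The kappa gene Gstk1 ranged from 4.59 through 6.95 to 8.65 TPM in tumor lines, from 5.11 through 6.535 to 11.3 TPM in PanIN lines and from 6.27 through 7.25 to 11.33 TPM in normal lines. Its log2 change between PanIN and normal lines was -0.11 (95% interval -0.43 to 0.21, adjusted p = 0.787, limma). Mgst1, an enzyme of the endoplasmic reticulum and outer mitochondrial membrane that also reduces lipid hydroperoxides, ranged from 247 through 459.7 to 702 TPM in tumor lines, from 417 through 677 to 785 TPM in PanIN lines and from 591 through 687 to 784 TPM in normal lines. The log2 change was -0.072 (95% interval -0.50 to 0.35, adjusted p = 0.899, limma), and PanIN 6 alone of the PanIN lines lay below the normal range.

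**Figure D2:**
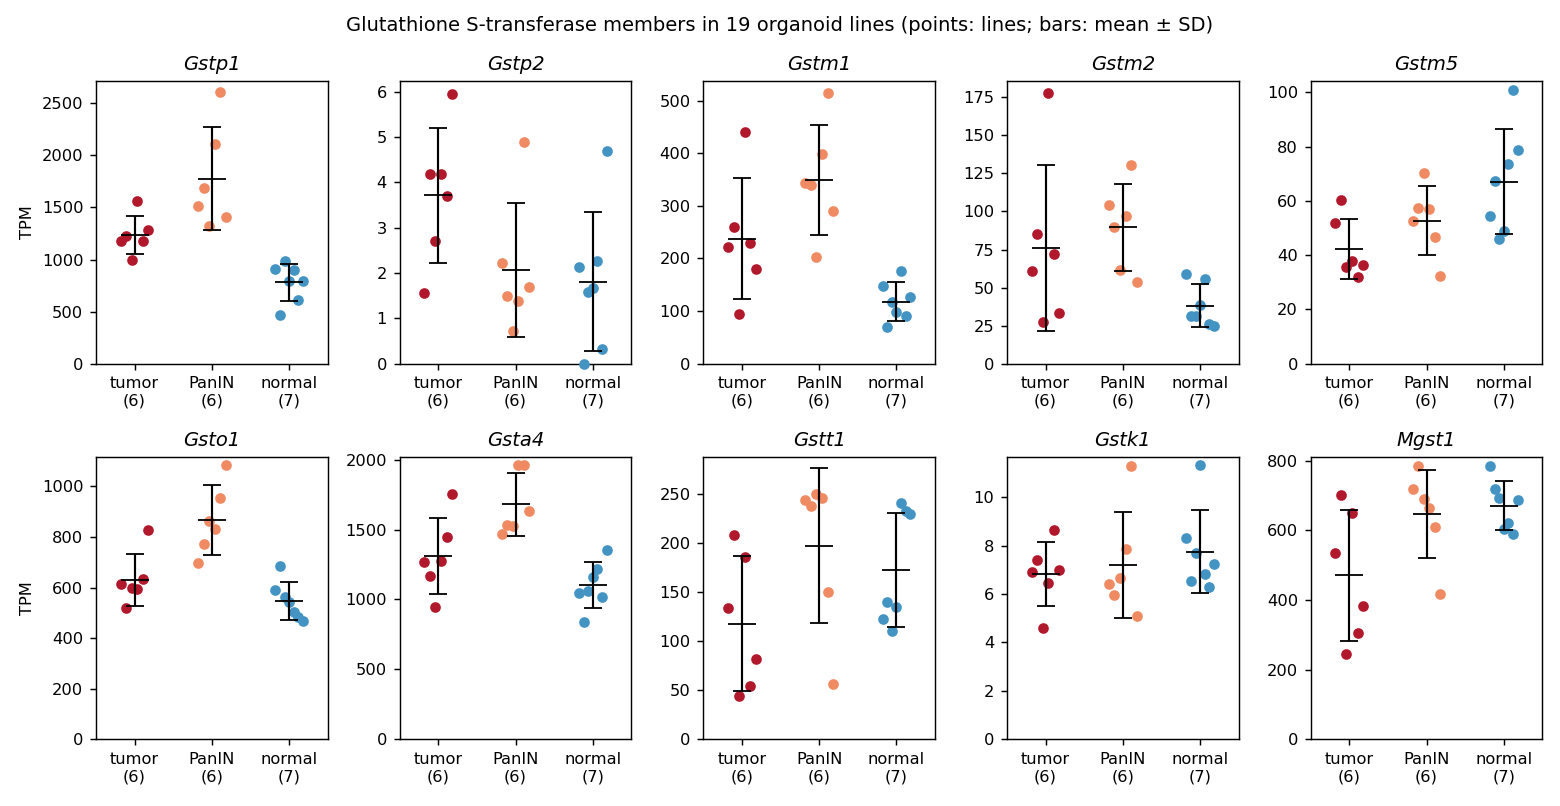
TPM of each member (vertical axes from 0, one panel per gene) in 6 tumor, 6 PanIN and 7 normal lines, left to right; points are lines, and black bars give the mean and SD. PanIN lines lie above all normal lines for Gstp1, Gstm1, Gsto1 and Gsta4, and Mgst1 spreads from 247 to 702 TPM among tumor lines, against 591 to 784 TPM among normal lines.

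Tumor lines were compared with normal lines to ask how adenocarcinoma cells differ from wild-type ducts. Of the 10 members, 2 rose, Gstp1 and Gstm1, and 2 fell, Gstm5 and Mgst1. In this comparison 17.8% of all genes were called higher and 14.4% lower, so 4 calls among 10 members stand beside a background of 32.2%. The groups did not overlap for 1 member, Gstp1, with tumor lines above, as for 2.9% of all genes; 7.26% of all genes separated these groups in either direction and 4.36% with tumor lines below. The members' median log2 change was 0.22, beside 0.039 for all genes. After rescaling without 11 rows 37.4% of all calls were rises, against 55.1% as deposited. These rows have TPM values but no PanIN to normal comparison in the authors' deposited table. Together they held 16.3% to 28.6% of the TPM of a line.

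Gstp1 averaged 1236 ± 186 TPM in tumor lines (SD, n = 6) and 780.4 ± 181 TPM in normal lines (SD, n = 7), a 1.61-fold rise (log2 change 0.69 with an SE of 0.17, adjusted p = 0.00654, limma). Gstm1 rose 1.89-fold, to 238 ± 115 TPM in tumor lines against 118 ± 36.4 TPM in normal lines (log2 change 0.92 with an SE of 0.28, adjusted p = 0.0183, limma). Both calls were kept in all fits without 1 line. Within the identifier series the log2 change was 0.71, 0.53 and 0.81 for Gstp1 and 1.28, 0.69 and 0.90 for Gstm1, where the first series held 1 tumor line, tumor 4.

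Gstm5 fell 1.56-fold, to 42.4 ± 11.1 TPM in tumor lines against 67.1 ± 19.3 TPM in normal lines (log2 change -0.64 with an SE of 0.19, adjusted p = 0.0177, limma), and 4 of 6 tumor lines lay below every normal line. Mgst1 fell 1.52-fold, to 471 ± 187 TPM in tumor lines against 671 ± 70.0 TPM in normal lines (log2 change -0.61 with an SE of 0.20, adjusted p = 0.0290, limma), again with 4 of 6 tumor lines below the normal range. The first series, with tumor 4 alone against 3 normal lines, showed neither fall: the log2 change was 0.12 for Gstm5 and -0.059 for Mgst1 there; the second series gave -0.76 for Gstm5 and -0.74 for Mgst1, and the third series -1.02 for Gstm5 and -0.49 for Mgst1. With the series as a factor Mgst1 was not called (adjusted p = 0.0574, limma). The call of Gstm5 was lost without tumor 8 (adjusted p = 0.0515, limma), and that of Mgst1 without tumor 5, 8 or 9 (adjusted p = 0.0650 to 0.0834, limma). Without tumor 8 the number of members called was thus 2 in place of 4, and the number of all genes called 2657 in place of 4024.

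The other 6 members were not called between tumor and normal lines. Gstm2 had a log2 change of 0.78 (95% interval 0.071 to 1.49, adjusted p = 0.0826, limma) and Gstp2 one of 0.88 (95% interval 0.16 to 1.59, adjusted p = 0.0569, limma). Gstp2 was called without normal 13, PanIN 5 or tumor 3 (adjusted p = 0.0216 to 0.0442, limma), and Gstm2 without tumor 5 or 9 (adjusted p = 0.0318 to 0.0491, limma). For Gsto1 the change was 0.20 (95% interval -0.037 to 0.43), for Gsta4 0.24 (95% interval -0.023 to 0.50), for Gstk1 -0.16 (95% interval -0.48 to 0.16) and for Gstt1 -0.71 (95% interval -1.51 to 0.096). Gstt1 changed by 0.75 in the first, -1.23 in the second series and -1.13 in the third. Gstt1 was called once tumor 4 and PanIN 6 were left out together (adjusted p = 0.0236, limma).

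**Figure D3:**
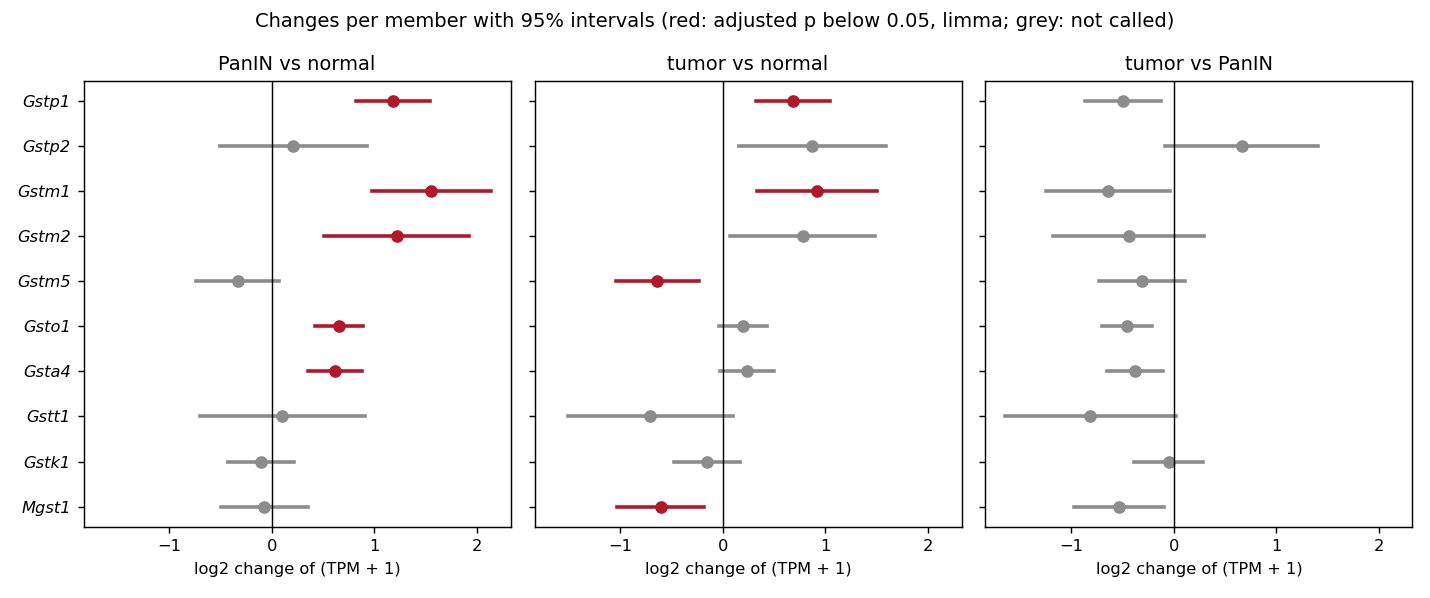
Log2 change of each member with its 95% interval (horizontal axis, log2 of TPM + 1; positive values mean higher in the first-named group) in PanIN vs normal, tumor vs normal and tumor vs PanIN lines; red marks an adjusted p below 0.05 and grey the rest. In the left panel 5 members are red and to the right of 0, in the middle panel 2 are red on either side of 0, and in the right panel 0 are red while 9 of 10 points lie left of 0.

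Tumor lines were also compared with PanIN lines, from which they differed in the Trp53 allele and the tissue of origin. Limma called 0 members. Of the 10, 9 were lower in tumor lines and 5 had an unadjusted p below 0.05 in limma (Gstp1, Gstm1, Gsto1, Gsta4 and Mgst1). The share of all genes below that unadjusted p was not counted. Such counts, here and for the gene lists below, thus have no background beside them, and the share of called genes is not one. In this comparison Gstt2, another GST gene, had an unadjusted p of 0.0531 and an adjusted p of 0.174 (limma). Values this close mean that a large share of all genes lay below an unadjusted p of 0.05. Counts at that p are therefore no sign of a change in the members or lists. Called genes made up 1.6% of all genes here, 0.392% higher and 1.21% lower in tumor lines. The members' median log2 change was -0.45, beside 0.055 for all genes. No member separated the groups, against 1.8% of all genes, 0.832% with tumor lines above and 0.968% with tumor lines below.

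Gsto1 had the smallest p, with 631 ± 104 TPM in tumor lines (SD, n = 6) and 867 ± 138 TPM in PanIN lines (SD, n = 6; log2 change -0.46, 95% interval -0.70 to -0.21, adjusted p = 0.0507, limma). Of the tumor lines, 5 of 6 lay below every PanIN line, with tumor 9 the exception. Gsto1 was called without normal 6, normal 11, PanIN 6, tumor 4 or tumor 9 (adjusted p = 0.0233 to 0.0473, limma), and also with median-of-ratios scaling (adjusted p = 0.0160, limma). Its log2 change was -0.58, -0.45 and -0.52 within the series. Gstp1 (log2 change -0.49, adjusted p = 0.0885, limma) and Gsta4 (log2 change -0.37, adjusted p = 0.0814, limma) also had 5 of 6 tumor lines below every PanIN line, with tumor 7 and tumor 9 as the exceptions. Within the series the log2 change was -0.29, -0.79 and -0.64 for Gstp1 and -0.37, -0.70 and -0.26 for Gsta4.

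Gstm1 had a log2 change of -0.64 (95% interval -1.24 to -0.032, adjusted p = 0.148, limma) and Mgst1 one of -0.53 (95% interval -0.97 to -0.095, adjusted p = 0.105, limma). Gstt1 had a change of -0.81 (95% interval -1.65 to 0.024, adjusted p = 0.180, limma). Leaving out PanIN 6 brought calls of Gsto1, Gstp1, Gstt1 and Mgst1 (adjusted p = 0.0415 for Gstp1, 0.0286 for Gstt1, limma), all lower in tumor lines, and the number of all genes called then was 2836 in place of 200. Leaving out tumor 4 brought calls of Gsto1 and Mgst1 and 2398 genes in all. Without both lines 5 members were called, Gstp1, Gstm5, Gsto1, Gstt1 and Mgst1, among 3981 genes. On the first principal component of all tested genes, which held 41.9% of the variance, PanIN 6 lay at 30.41 and tumor 4 at 0.09, while the other PanIN lines lay at -15.9 to 12.07 and the other tumor lines at 11.83 to 45.69.

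The authors' deposited table, made with DESeq software on the authors' own normalization, gave 5 members with an adjusted p below 0.05 between PanIN and normal lines, the same 5 genes as above. Between tumor and normal lines it gave 5 members, Gstp1, Gstm1, Gstm5, Mgst1 and also Gstm2 (log2 change 0.91, adjusted p = 0.0225 in the authors' deposited table). Between tumor and PanIN lines it gave 3, Gsto1 (log2 change -0.52, adjusted p = 0.000842 in the authors' deposited table), Gstp1 (-0.58, adjusted p = 0.0303) and Gsta4 (-0.42, adjusted p = 0.0377), all lower in tumor lines. Of the genes that have an adjusted p in the authors' deposited table, that p was below 0.05 for 10.5% of 15617 between PanIN and normal lines, 32.5% of 16644 between tumor and normal lines and 11.7% of 12560 between tumor and PanIN lines.

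The members fell into groups by their course over the 19 lines, described here by Pearson correlations of log2(TPM + 1) with no test, since the lines share the groups and the TPM total. Gstp1 and Gstm1 were correlated at 0.926, Gstm1 and Gstm2 at 0.905 and Gstp1 and Gsta4 at 0.841. After the group means were taken away these values were 0.787, 0.849 and 0.616. Gstt1, Mgst1 and Gstm5 formed the other group, with 0.840 for Gstt1 and Mgst1, 0.787 for Gstt1 and Gstm5 and 0.640 for Gstm5 and Mgst1, or 0.806, 0.806 and 0.489 after the group means were taken away. Gstp1 and Mgst1 were correlated at -0.015. Gsto1 went with Gsta4 at 0.679 over all lines, but at 0.168 once the group means were removed.

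The same lines were low for all of Gstt1, Mgst1 and Gstm5. Tumor 5, tumor 8, tumor 9 and PanIN 6 were the 4 lowest of the 19 lines for each of these genes. They were also the 4 highest on the first principal component, at 30.41 to 45.69. That component held 41.9% of the variance of all tested genes, so the pattern need not be particular to GST genes. The share of all genes with these same 4 lines lowest was not counted. In these lines Gstt1 stood at 43.8, 54.5, 81.8 and 56.7 TPM, and Mgst1 at 247, 306, 384 and 417 TPM. Tumor 5 was the lowest tumor line for 7 of the 10 members. PanIN 5 was the highest PanIN line for 6 members, among them Gstp1, Gstm1 and Gsta4, and normal 6 was the lowest normal line for Gstp1, Gstp2, Gstm1 and Gsta4.

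**Figure D4:**
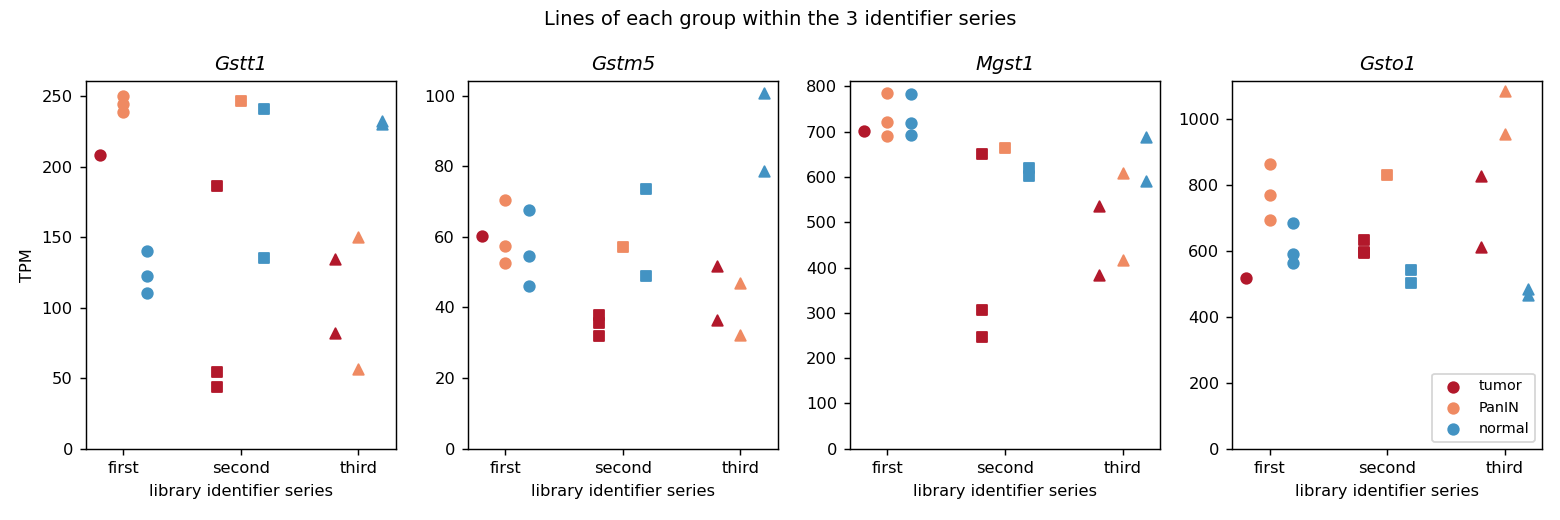
TPM of Gstt1, Gstm5, Mgst1 and Gsto1 (vertical axes from 0) in each line, by library identifier series (horizontal axis and marker shape), with tumor lines left, PanIN lines in the middle and normal lines right within a series. In the first series PanIN lines are above normal lines for Gstt1 and in the third series below them, while for Gsto1 PanIN lines are above normal lines in all 3 series.

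Among 10891 tested genes, with members and predicted genes left out, those most like Gstp1 over the 19 lines were Ubl3 (r = 0.912), Gpt (0.906), Tmem37 (0.884), Marcksl1-ps4 (0.875) and Gsta3 (0.871). Those most like Gstm1 were Tmem37 (0.938), Gsta3 (0.912), Aldh3b1 (0.903), Nr1h4 (0.902) and Aass (0.902). Gsta3, an alpha class GST gene, was thus on both lists, and averaged 613 ± 154 TPM in tumor, 822 ± 93.2 TPM in PanIN and 517 ± 102 TPM in normal lines. The single most similar gene was Gas6 for Mgst1 (r = 0.970), Setd7 for Gstm5 (0.948), Grcc10 for Gstt1 (0.936), Cd55 for Gsto1 (0.907), Akr1b7 for Gstm2 (0.896), S100a13 for Gsta4 (0.886), Sdhc for Gstk1 (0.816) and Gchfr for Gstp2 (0.763).

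Of 21 other genes listed, GST genes and related ones such as Gstcd, Ptges and Alox5ap, 11 passed the filter. Between PanIN and normal lines 2 of these rose and 0 fell, where 6.78% of all tested genes were called. Those that rose were Gsta3 (1.61-fold, adjusted p = 0.0117, limma) and Gsta1, another alpha class gene (2.39-fold, to 217 ± 55.3 TPM in PanIN lines against 101 ± 52.5 TPM in normal lines, adjusted p = 0.0397, limma). The median log2 change of the 11 was 0.37. Between tumor and normal lines, where 32.2% of all tested genes were called, 3 rose and 0 fell, Gstcd, Mgst2 and Gsta2, each at a mean below 14 TPM. Between tumor and PanIN lines limma called 0 of 11, beside 1.6% of all tested genes, with the smallest adjusted p at 0.0797 for Gstcd. An unadjusted p below 0.05 was found for 3, and the authors' deposited table called 1, Gsta3. Gstz1, the zeta class enzyme of tyrosine breakdown, stood at 22.4 ± 2.16 TPM in tumor, 22.8 ± 2.99 TPM in PanIN and 22.8 ± 1.58 TPM in normal lines.

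Among 13 genes of glutathione synthesis and cysteine supply, 2 rose and 0 fell in PanIN against normal lines, where 6.78% of all tested genes were called. The median log2 change of the 13 was 0.22. The 2 that rose were Cth, which makes cysteine from cystathionine (1.92-fold, adjusted p = 0.0199, limma), and Gclm, the modifier subunit of the enzyme that limits glutathione synthesis (1.35-fold, adjusted p = 0.0281, limma). Its catalytic partner Gclc averaged 163 ± 35.0 TPM in PanIN and 101 ± 51.0 TPM in normal lines and was not called (adjusted p = 0.0694, limma). In tumor against normal lines 6 rose and 1 fell, beside 32.2% of all tested genes called, with a median log2 change of 0.41, led by Cth (3.02-fold, to 16.2 ± 4.71 TPM in tumor lines against 4.76 ± 1.71 TPM in normal lines, adjusted p = 0.000227, limma). The amino acid carrier genes Slc3a2 and Slc1a4 rose 1.62-fold and 1.56-fold, and the cystathionine synthase gene Cbs 1.33-fold. Between tumor and PanIN lines limma called 0 of 13, beside 1.6% of all tested genes. An unadjusted p below 0.05 was found for 5, and the authors' deposited table called 1, Cbs.

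Of 16 genes of glutathione reduction and peroxidases, 3 rose and 3 fell in PanIN against normal lines, where 6.78% of all tested genes were called. Gsr, which regenerates reduced glutathione, rose 1.51-fold and the glutaredoxin gene Glrx3 1.25-fold, while the glutaredoxin gene Glrx fell 1.83-fold and Gpx8, a peroxidase of the endoplasmic reticulum, 2.98-fold. In tumor against normal lines 6 rose and 4 fell, beside the same 32.2% of all tested genes. Gsr rose 1.62-fold and G6pdx, which supplies NADPH, 1.42-fold, while Glrx fell 1.86-fold and the secreted peroxidase gene Gpx3 2.80-fold. Gpx3 was low, with means of 1.07 TPM in tumor and 4.78 TPM in normal lines. Limma called 0 of these 16 between tumor and PanIN lines, beside 1.6% of all tested genes. An unadjusted p below 0.05 was found for 2, and the authors' deposited table called 1, Glrx3.

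Of 12 tested genes of conjugate export and mercapturate processing, 2 rose and 1 fell in PanIN against normal lines, beside 6.78% of all tested genes called. The conjugate pump genes Abcc4 and Abcc3 rose 1.64-fold each, Abcc4 to 67.6 ± 5.47 TPM in PanIN lines against 41.2 ± 6.66 TPM in normal lines (adjusted p = 0.000319, limma) and Abcc3 with an adjusted p of 0.0256 (limma), and Ggt7 fell 1.39-fold at a mean below 2 TPM. Abcc4 was the sole gene of this list that limma called between tumor and PanIN lines, where 1.6% of all tested genes were called. It was 1.35-fold lower in tumor lines (adjusted p = 0.0469, limma). At an unadjusted p below 0.05 there were 6 of the 12, and the authors' deposited table called 5, Abcc4, Abcc5, Acy1, Acy3 and Lap3. In tumor against normal lines 3 rose and 2 fell, a share near the 32.2% called among all tested genes. The aminopeptidase gene Lap3 rose 1.6-fold and the aminoacylase gene Acy1 1.53-fold, while the efflux pump gene Abcg2 fell 1.6-fold and Ggt7 1.64-fold.

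Among 22 NRF2 regulators and other NRF2 targets, 6 rose and 0 fell in PanIN against normal lines, where 6.78% of all tested genes were called. The median log2 change of the 22 was 0.18. Ugdh, which makes the donor for glucuronidation, rose 2.28-fold, to 112 ± 23.8 TPM in PanIN lines against 48.6 ± 10.6 TPM in normal lines (adjusted p = 7.14e-05, limma). The quinone reductase gene Nqo1 rose 1.79-fold, the epoxide hydrolase gene Ephx1 1.42-fold and the carbonyl reductase gene Cbr1 1.41-fold. Nqo1 was low, with means of 3.33 TPM in PanIN and 1.44 TPM in normal lines. Nfe2l2, which encodes NRF2, averaged 338 ± 41.3 TPM in PanIN and 287 ± 16.3 TPM in normal lines and was not called by limma (adjusted p = 0.0827), whereas the authors' deposited table called it. In tumor against normal lines 6 rose and 2 fell, again a share near the 32.2% called among all tested genes. Ugdh rose 2.13-fold, the ferritin light chain gene Ftl1 1.55-fold and the thioredoxin gene Txn1 1.4-fold, and Bach1, a repressor of NRF2 targets, fell 1.4-fold. Ephx1 alone of the list was called by limma between tumor and PanIN lines, where 1.6% of all tested genes were called. It stood at 250.2 ± 54.8 TPM in tumor against 452 ± 69.8 TPM in PanIN lines (adjusted p = 0.00289, limma). Of the 22 genes 6 had an unadjusted p below 0.05, and the authors' deposited table called 4, Cbr1, Ephx1, Nfe2l2 and Taldo1.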

How the data were processed

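The members and gene lists were chosen with earlier results of these data known. Per the labels' protocols, Trizol RNA was depleted of ribosomal RNA and sequenced as stranded libraries. The authors deposited TPM per gene and line; the build was mm9 and the tools named are Bowtie 1.1.0, RSEM 1.2.11, DESeq2 1.4.1, DESeq and FastQC, per the submitters' processing notes, which name no annotation. The deposited table also holds the authors' comparisons: a mean signal per gene, the log2 fold change with its standard error, a test statistic (score) and p-values. No column belongs to another sample (0). Some alleles of these mice are not reported here.

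A linear model of log2(TPM + 1) was fitted by limma 3.58.1 (R 4.3.3): 1 mean per group over 19 lines, eBayes with trend, two-sided, Benjamini-Hochberg within each comparison. Genes with a TPM of at least 1 in at least 6 lines were tested (12500), and called at an adjusted p below 0.05. Replicates are separate lines; the labels do not say whether lines shared a mouse, so a p-value speaks of the spread among these lines, which may be technical. Depth is unknown, so no counting interval is given. The fit was tested on simulated data with independent noise for each gene. Such data lack the variation that genes share across these lines, so the test does not speak of it. All members are named, from each list up to 4 called genes per comparison with the smallest p, and Gclc, Nfe2l2 and Gstz1, which were chosen after their values were seen. Reference sequences are RefSeq and GENCODE of GRCm38, another build than mm9, and were joined by symbol. Alternatives covered the pseudocount, filters, scaling, covariates, variance models, summed paralogs and left-out lines; 1, leaving out PanIN 6 and tumor 4, was chosen after seeing the data. Python 3.11.15 with matplotlib 3.10.9 drew the figures.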

Additional observations from a re-analysis of the deposited data

Results flagged for a closer look

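In 3 of the 30 sets of values checked (10 members in 3 groups), 1 line lay far from the others of its group; chance flags about 1 in 20 such sets. Gstp2 stood at 4.9 TPM in PanIN 5, where the next PanIN line had 2.23 TPM. Gsto1 stood at 826.88 TPM in tumor 9, where the next tumor line had 633.74 TPM; without tumor 9 Gsto1 was called between tumor and PanIN lines, as given above. Gstk1 stood at 11.33 TPM in normal 10, where the next normal line had 8.3 TPM.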

How the results depend on the processing

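Of 1017 tested values of members under another setting, 959 kept their direction and their side of the threshold, 21 lost a call, 28 gained one and 9 changed sign, each a change near 0 that was not called. These were Gstt1 between PanIN and normal lines with the replicate block (-0.13), Mgst1 there with array weights (0.072) or without PanIN 6 and tumor 4 (0.050), and Gstk1 between tumor and PanIN lines with array weights (0.034). Leaving out 1 line gave -0.0051 to 0.41 for Gstp2 and -0.13 to 0.050 for Mgst1 between PanIN and normal lines, and -0.13 to 0.074 for Gstk1 between tumor and PanIN lines. Between PanIN and normal lines 847 genes were called, 535 with a filter at a TPM of 5 and 496 to 893 without 1 line (496 without PanIN 5); 4 to 5 members were called without 1 line. Between tumor and normal lines, leaving out 1 line gave 2 to 5 members and 2657 to 4860 genes. Between tumor and PanIN lines 200 genes were called, but 93 without a filter, 130 with a filter at a TPM of 5, 333 after quantile normalization, 65 with the identifier series as a factor, 97 with the 2 groups alone, 4889 with array weights, 3981 without PanIN 6 and tumor 4 and 53 to 2836 without 1 line. Members called there numbered 1 with median-of-ratios scaling, quantile normalization, rescaling without the 11 rows or the robust fit, 4 with array weights, 5 without PanIN 6 and tumor 4 and 0 to 4 without 1 line. The cause was not tested. Lines of different groups share some numbers, but correlations of same-numbered deviations were -0.307 to 0.247. Of 6 numbered tumor and PanIN lines, 0 correlated best with their own number, too few lines to exclude pairing. The labels do not say that a number marks a shared mouse or batch, so the numbers were not taken to pair lines. With them as a replicate block 3, 0 and 0 members and 258, 225 and 8 genes were called in PanIN vs normal, tumor vs normal and tumor vs PanIN. The calls lost in PanIN vs normal were those of Gstm1 (adjusted p = 0.0961, limma) and Gstm2 (adjusted p = 0.288, limma). A filter at a TPM of 5 removed Gstp2. The 6 changes of summed paralogs (Gstp1 with Gstp2, and Gstm1 with Gstm2 and Gstm5) had no test. Without depth, differences of members under 10 TPM are the least certain.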
